A study of Mus musculus with 6 samples.

Results

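Neurexins and their postsynaptic partners were followed through 7 genes, Nrxn2, Nrxn3, Nlgn1, Nlgn2, Nlgn3, Lrrtm1 and Lrrtm2, in mouse cortical cultures exposed to terahertz radiation and in unexposed cultures. The genes were taken by the gene name that the array files give, and every probe carrying such a name was used. This gave 19 of the 56605 non-control probes of the array, or 7 of its 37008 gene names. There were 4 probes for Nrxn2, 6 for Nrxn3, 3 for Nlgn1, 2 each for Nlgn2 and Nlgn3, and 1 each for Lrrtm1 and Lrrtm2. They are numbered here in the direction of transcription.

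The irradiated group held 3 cultures that received radiation at 3.1 THz, in the far infrared, in daily sessions of 3 hours from 5 to 9 days in vitro. The control group held 3 cultures labelled as controls. All 6 came from cerebral cortex of C57/B6 embryos at embryonic day 16, were grown in Neurobasal medium with B27 plus, and gave RNA after 12 days in vitro. Each RNA sample, 0.2 µg, was labelled with Cy3 and read on an Agilent 1-colour array, and the series asked what terahertz exposure does to synaptic transmission and to oligodendrocytes in culture. Samples carry the numbers 1 to 3 within a group, with no statement that they were separate dissections, so the p-values reflect only how far these samples spread, and that spread may be technical.

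Neurexins are presynaptic membrane proteins that reach across the synaptic cleft. Neuroligins and the leucine-rich repeat proteins of the LRRTM family bind them from the postsynaptic side, and these pairs help to organise the synapse and its type. Neurexin genes can be very long, carry several promoters that give long (alpha) and short (beta) proteins, and are spliced at several sites that change which partner is bound. Neuroligin 1 is found mainly at excitatory synapses, neuroligin 2 at inhibitory synapses and neuroligin 3 at both, while the LRRTM proteins act at excitatory synapses.

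A level here is the log2 processed signal of a probe minus the 75th percentile of its array, so that 0 is the signal of a probe at that percentile. A difference is the irradiated mean minus the control mean on that scale. The probe with the highest mean signal is called the brightest of its gene, and since probes bind with different strength this does not rank transcripts or genes by amount. Bulk RNA from a culture cannot tell fewer cells of a type from less RNA per cell. The 9 neuron markers were all measured, with a log2 summed level of 8.23 to 8.77 on the irradiated arrays and 8.70 to 8.78 on the control arrays. Irradiated 1 and 2, at 8.23 and 8.42, lay below all 3 controls, and irradiated 3, at 8.77, did not. The sum adds linear signals, so bright genes weigh most, and the single markers were mixed. Tubb3, Rbfox3, Syt1 and Gad2 had irradiated 1 and 2 below all 3 controls. Map2, Snap25, Stmn2, Slc17a7 and Gad1 did not. Glial markers were present too. Astrocyte markers (5 of 5 measured) summed to 5.54 to 7.03 on irradiated and 5.58 to 7.17 on control arrays, oligodendrocyte markers (6 of 6) to 5.11 to 6.91 and 5.03 to 7.05, and microglia markers (5 of 5) to 3.54 to 4.53 and 3.25 to 4.17. In each of these 3 glial lists the array numbered 1 was the highest of its group. Of 3 endothelial markers only Pecam1 passed the filter, at -3.03 to -2.89 on irradiated and -3.13 to -2.40 on control arrays. Control 1 stood apart: the share of spots well above background was 64.9% there, against 69.9% to 74.7% on the other 5 arrays, and it lay at 148 on the first principal component (55.2% of the variance), where the others lay between -62.0 and -11.5. No spot was saturated.

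The sign of the difference varied with the place of the probe in Nrxn3 and Nlgn1, whose probes spread over 1540 kb and 699.9 kb, so the probes of these genes are shown first. Each is 60 bases long, and the first 30 bases are given 5′ to 3′ as deposited, with G and C in capitals to show base composition. The file headers place probes on mouse build mm9. Exon and untranslated region maps of mm9 were not used here, so a probe is tied to a transcript only where the files name a variant. The 6 Nrxn3 probes lie on the plus strand of chromosome 12 and the 3 Nlgn1 probes on the minus strand of chromosome 3.
Nrxn3 probe 1: tCtCCtCCttGaatCaaGGCCtCCGGatCC
Nrxn3 probe 2: CtCCaCCCttCCtGGtCaaaaGaaGCCatC
Nrxn3 probe 3: aGaGCatGaaaaCtttCtCtaGatGaGaaa
Nrxn3 probe 4: aGCaCCaCtCtGtGCCtatttCtatCtatC
Nrxn3 probe 5: aaaGaaGaGaGaaCtCCtGtCaatGatGGC
Nrxn3 probe 6: tGCtttCCCatttGCtttttCGttCatGGa
Nlgn1 probe 1: tCaatCttCCtaCaaaaGtCatattaGtat
Nlgn1 probe 2: aCCatCtCaGttGCttttCaaGCCttaaGa
Nlgn1 probe 3: CCCtttttCaaGaatCGaaaGCttattata
Over the whole 60 bases, G and C made up 48.3%, 36.7%, 45%, 55%, 45% and 35% of Nrxn3 probes 1 to 6 and 35%, 41.7% and 35% of Nlgn1 probes 1 to 3.

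No probe of the 7 genes passed the test. All 19 probes passed the filter on dim signal (well above background on at least 3 of 6 arrays, counted without regard to group), and in limma over 40552 probes their smallest Benjamini-Hochberg adjusted p was 0.520. The share of all kept probes called at an adjusted p under 0.05 was 0%. At an unadjusted p under 0.05 there was 1 member probe, Nlgn1 probe 1, higher in irradiated cultures, beside 9.02% of all kept probes (4.02% higher and 4.99% lower). The difference was below 0 at 14 of the 19 probes and above 0 at 5, with a median of -0.27, while over all kept probes 55.9% lay below 0 and the median was -0.05. The irradiated and control values did not overlap at 4 probes, 2 lower (9.71% of all kept probes) and 2 higher (5.77%) in the irradiated cultures. At the brightest probe of each gene the difference was below 0 for all 7 genes, where 65.8% of all 26120 genes, taken at their brightest probe, lay below 0. That direction was not kept under every scaling: Lrrtm1 turned to 0.026 with quantile normalisation, and Nlgn1 to 0.00071 when the 75th percentile was taken over probes well above background on all arrays.

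**Figure D1:**
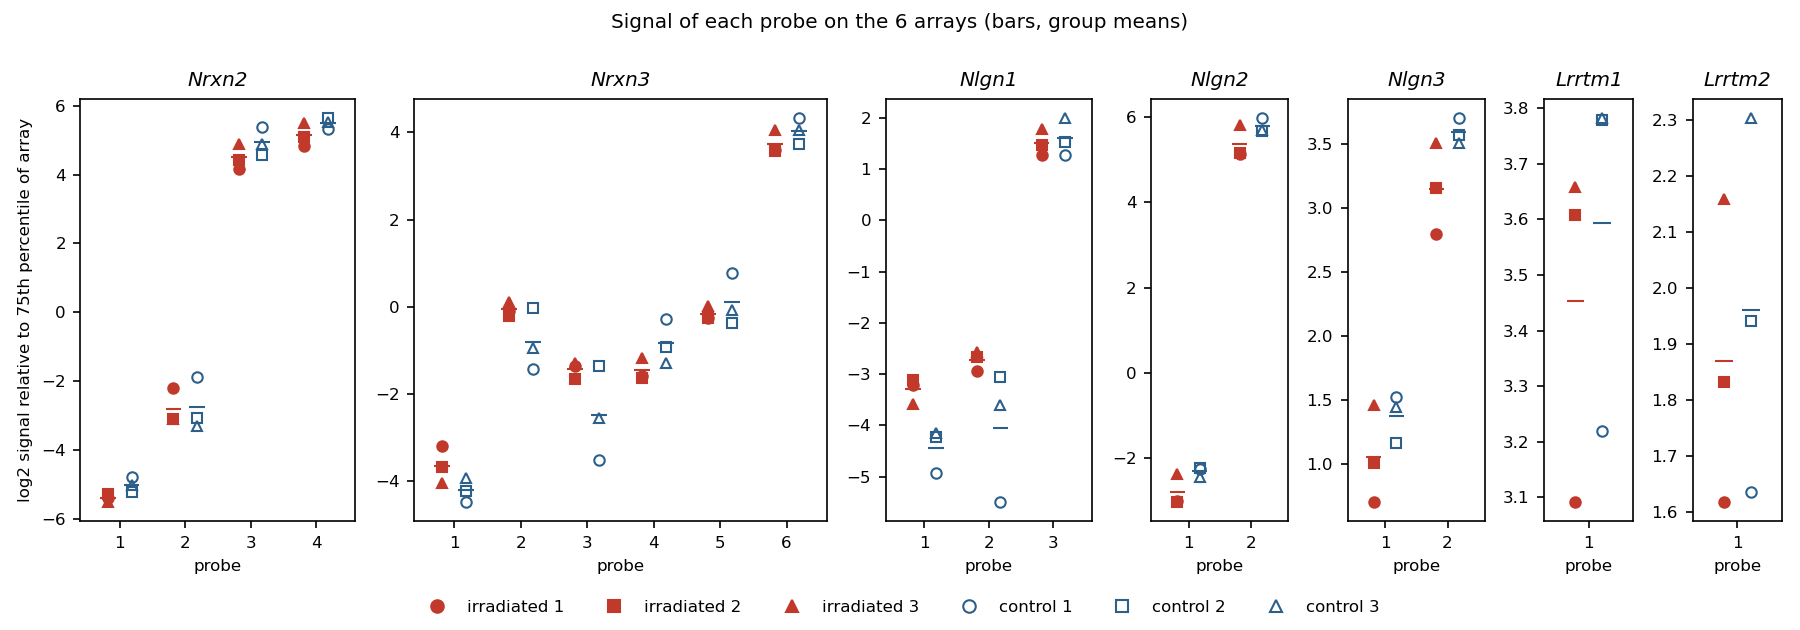
Level of each of the 19 probes on the 6 arrays (log2 processed signal relative to the 75th percentile of the array), one panel per gene with its own axis, irradiated left in red and control right in blue, marker shape for the sample number and a bar for the group mean (n = 3). The groups separate upward at Nlgn1 probes 1 and 2 and downward at Nrxn2 probe 1 and, narrowly, at Nlgn3 probe 2, and overlap at the other 15 probes.

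Nrxn2 encodes a presynaptic neurexin, and its 4 probes on chromosome 19 (plus strand) lie over 105 kb. Probe 4 (chr19:6533156-6533215, named for transcript variant 1) is the brightest, with levels of 4.83, 5.08 and 5.49 in irradiated cultures and 5.33, 5.65 and 5.54 in control cultures. Probe 3 (chr19:6532125-6532184, also variant 1) had 4.17, 4.43 and 4.90 in irradiated and 5.39, 4.56 and 4.90 in control cultures. Irradiated 1 and 2 were the lowest of the 6 arrays at both probes, and the groups overlapped through irradiated 3. The difference was -0.37 ± 0.24 at probe 4 (SE, 95% interval -0.93 to 0.19, adjusted p = 0.573) and -0.45 ± 0.30 at probe 3 (adjusted p = 0.582). With quantile normalisation the differences were -0.11 and -0.22. The summed neuron markers were also lowest on irradiated 1 and 2, and their part in the Nrxn2 levels was not tested.

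Nrxn2 probe 1 (chr19:6427873-6427932), named for transcript variant 3 and the most GC-rich of the 19 probes at 60%, was dim. Its levels were -5.40, -5.28 and -5.51 in irradiated and -4.76, -5.22 and -5.02 in control cultures, with every irradiated value below every control value. Before scaling, its processed signal was 19.9, 22.9 and 13.98 in irradiated and 11.8, 12.5 and 21.9 in control cultures. The groups overlapped there, so their separation appeared only after scaling. The difference was -0.40 ± 0.21 (SE, 95% interval -0.89 to 0.10, unadjusted p = 0.103). Probe 2 (chr19:6482457-6482516) was highest on both arrays numbered 1, with no order between numbers 2 and 3. It read -2.21 in irradiated 1 and -1.87 in control 1, against -3.11 and -3.11 in irradiated 2 and 3 and -3.05 and -3.31 in control 2 and 3. Its group difference was -0.06 ± 0.43 and turned to 0.37 without control 1. The glial marker sums were also highest on the arrays numbered 1, and their part in the level of this probe was not tested.

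Nrxn3, the other neurexin gene described, gave opposite signs at its upstream and downstream probes. Probe 1 (chr12:90033278-90033337, transcript variant 1) had -3.20, -3.68 and -4.05 in irradiated and -4.48, -4.23 and -3.92 in control cultures. Probe 2 (chr12:90089234-90089293) had -0.08, -0.21 and 0.12 in irradiated and -1.44, -0.03 and -0.94 in control cultures. Probe 3 (chr12:90499896-90499955) had -1.36, -1.65 and -1.28 in irradiated and -3.50, -1.35 and -2.56 in control cultures. At all 3 the irradiated mean was higher, control 1 was the lowest array, and the groups overlapped. The differences were 0.57 ± 0.28, 0.74 ± 0.36 and 1.04 ± 0.50 (SE, unadjusted p = 0.084, 0.077 and 0.075, adjusted p = 0.520 at each). With normexp background correction they were -0.13, 0.56 and 0.49, so the sign at probe 1 turned.

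Farther along Nrxn3 the irradiated means were the lower ones. Probe 4 (chr12:91052021-91052080, variant 3) had -1.58, -1.63 and -1.16 in irradiated and -0.27, -0.91 and -1.29 in control cultures. Probe 5 (chr12:91407414-91407473, variant 2) had -0.26, -0.26 and 0.03 in irradiated and 0.77, -0.37 and -0.08 in control cultures. Probe 6 (chr12:91573315-91573374, variant 1), the brightest, had 3.61, 3.56 and 4.06 in irradiated and 4.33, 3.74 and 4.05 in control cultures. Control 1 was the highest array at each of these 3 probes, the reverse of its place upstream, and again the groups overlapped. At probes 4 and 6 irradiated 1 and 2 lay below all control values. The summed neuron markers were also lowest on irradiated 1 and 2, and their part at these probes was not tested. The differences were -0.63 ± 0.31, -0.27 ± 0.32 and -0.30 ± 0.25 (SE), with adjusted p of 0.520, 0.769 and 0.665.

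Over the 6 arrays the Nrxn3 probes varied in 2 blocks, which rested in part on control 1. The 9 pairs made of 1 probe from probes 1 to 3 and 1 from probes 4 to 6 had Pearson's r between -0.88 and -0.61 over the 6 arrays. The 3 pairs within probes 1 to 3 had r from 0.48 to 0.99 and the 3 pairs within probes 4 to 6 from 0.80 to 0.87. These are descriptions with no test, from arrays that share the 2 groups and the depth of each hybridisation. Spearman's rho ran from -0.94 to -0.09 between the blocks, from 0.14 to 1 within probes 1 to 3 and from 0.37 to 0.83 within probes 4 to 6. Without control 1, 7 of the 9 pairs between the blocks were below 0 (r from -0.86 to 0.15), while r went as low as -0.0058 within probes 1 to 3 and 0.019 within probes 4 to 6. Without that array the differences at probes 1 to 6 became 0.43, 0.42, 0.52, -0.36, 0.06 and -0.15. The mean of probes 1 to 3 minus that of probes 4 to 6, each relative to its own mean over the arrays, was 0.87, 0.60 and 0.30 in irradiated and -1.74, 0.32 and -0.35 in control cultures, so control 2 lay among the irradiated values.

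Among the neuroligins, Nlgn1 had the largest differences of the 7 genes, again at upstream probes. Probe 1 (chr3:26030753-26030812) had levels of -3.20, -3.10 and -3.58 in irradiated and -4.93, -4.23 and -4.14 in control cultures. Probe 2 (chr3:25599157-25599216) had -2.94, -2.67 and -2.56 in irradiated and -5.50, -3.06 and -3.60 in control cultures. All 3 irradiated values lay above all 3 control values at both probes, and both were well above background on 3 irradiated and 2 control arrays. The difference was 1.14 ± 0.28 at probe 1 (SE, 95% interval 0.49 to 1.79, unadjusted p = 0.00418) and 1.33 ± 0.58 at probe 2 (95% interval -0.02 to 2.68, unadjusted p = 0.0533), each with an adjusted p of 0.520. With the sample number as a block the unadjusted p was 0.0087 at probe 1 and 0.029 at probe 2, and the smallest adjusted p was 0.495.

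Both upstream Nlgn1 probes were faint. Before scaling, the processed signal of probe 1 was 91.2, 104 and 53.3 in irradiated and 10.5, 24.8 and 40.1 in control cultures, and that of probe 2 was 110, 140 and 107.4 in irradiated and 7.08, 55.6 and 58.4 in control cultures. Control 1 gave the lowest signal at both, and control 1 also had the lowest 75th percentile, 320, where the other arrays ranged from 465 to 892. The differences were 0.09 and 0.18 with normexp background correction with an offset of 50, which draws faint signals together. Without control 1 they were 0.89 and 0.61. Probe 3 (chr3:25330886-25330945, transcript variant 1), the brightest, had 1.27, 1.48 and 1.79 in irradiated and 1.28, 1.52 and 2.00 in control cultures. The groups overlapped there, and the difference was -0.09 ± 0.27 (95% interval -0.71 to 0.53, adjusted p = 0.931). Probes 1 and 2 had r = 0.85 with each other over the 6 arrays and 0.0047 and 0.31 with probe 3.

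**Figure D2:**
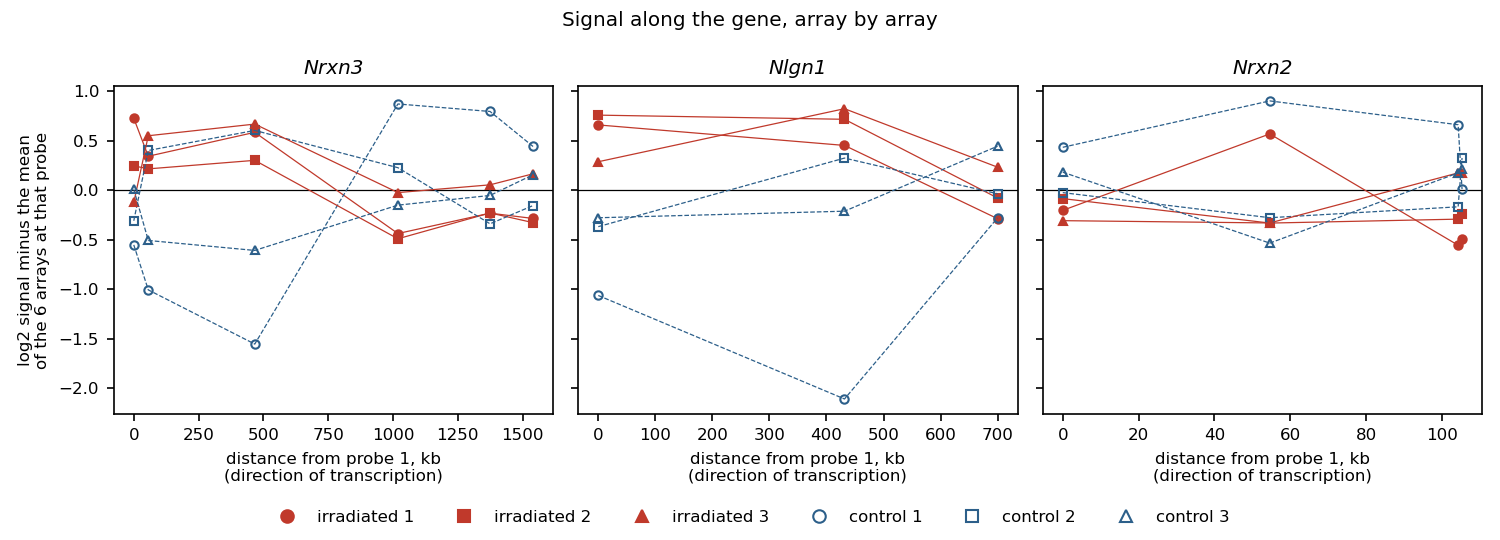
Level at each probe minus the mean of the 6 arrays at that probe (log2), against the distance in kb from the first probe in the direction of transcription, for Nrxn3, Nlgn1 and Nrxn2, with 1 line per array (irradiated red and solid, control blue and dashed). Control 1 is lowest at the upstream probes of Nrxn3 and Nlgn1 and highest at Nrxn3 probes 4 to 6. Its line covers the widest range of the 6 in both genes, with its lowest point in Nlgn1 at probe 2.

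A tilt along the gene was common on these arrays. Among 3903 named genes with kept probes at least 10 kb apart, the difference at the first probe minus that at the last was above 0 for 64.8%, with a median of 0.20. Nlgn1, at 1.23, stood at percentile 94.5 of these genes, Nrxn3, at 0.86, at percentile 87.1, and Nrxn2, at -0.03, at percentile 33.4. The level at the first probe minus that at the last was taken array by array, relative to each gene's mean over the 6 arrays. Its median over all 3903 genes was 0.23, 0.16 and -0.03 on the irradiated arrays. On the control arrays it was -0.20, 0.05 and -0.13, again lowest on control 1. Level and base composition moved with the difference as well. The median difference of all kept probes was -0.06 at levels up to -4, 0.05 from -4 to -2 and -0.28 above 4, and it was 0.06 at a GC share up to 35% and -0.42 above 55%. Nrxn2 probe 1, with a GC share of 60%, had a difference of -0.40. Nrxn2 probes 3 and 4 and Nlgn2 probe 2, with mean levels above 4, had -0.45, -0.37 and -0.41. At a GC share up to 35%, Nrxn3 probe 6 had -0.30 and Nlgn1 probes 1 and 3 had 1.14 and -0.09. Nlgn2 probe 2, Nlgn3 probe 1 and Lrrtm2, also up to 35%, had -0.41, -0.32 and -0.09. At mean levels from -4 to -2, Nrxn2 probe 2 had -0.06, Nrxn3 probe 1 had 0.57 and Nlgn2 probe 1 had -0.49. Nlgn1 probes 1 and 2, at those levels too, had 1.14 and 1.33. The part of level, base composition and control 1 in the differences at Nrxn3, Nlgn1 and the other member genes was not tested.

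**Figure D3:**
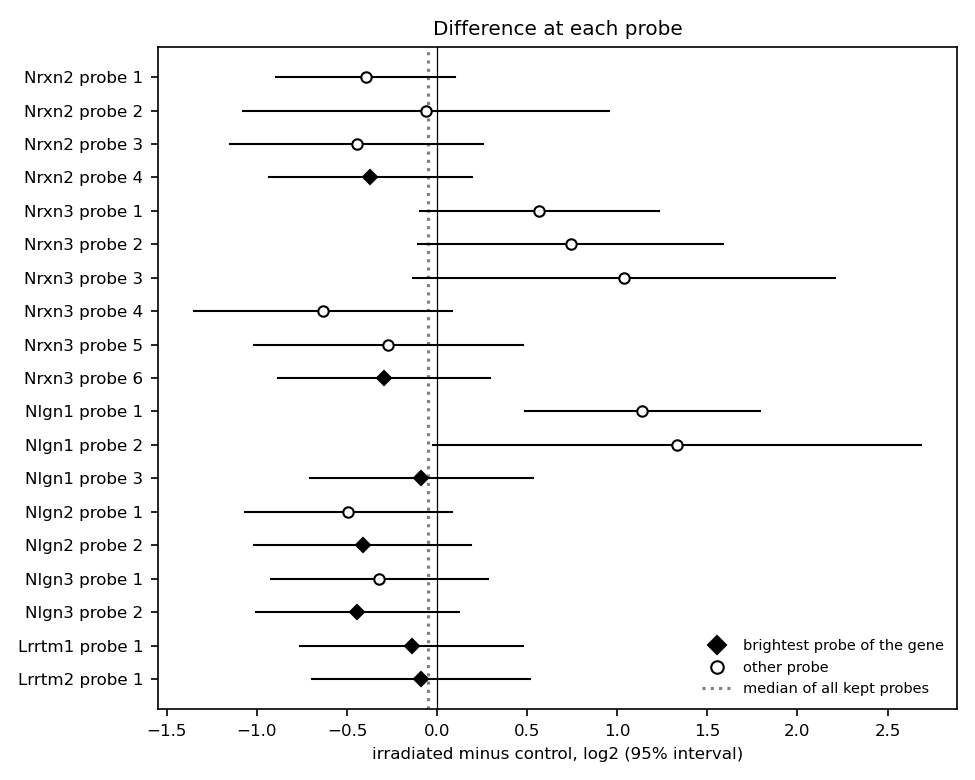
Irradiated minus control difference of each probe (log2) with its 95% interval from limma, filled diamonds for the brightest probe of a gene, open circles for the other probes and a dotted line at the median of all kept probes (-0.05). The interval excludes 0 only at Nlgn1 probe 1, and the 7 diamonds lie between -0.44 and -0.09.

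Nlgn2, the neuroligin of inhibitory synapses, had 2 probes only 1.89 kb apart on the minus strand of chromosome 11, and they moved together (r = 0.95 over the 6 arrays). Probe 2 (chr11:69636641-69636700), the brighter, had 5.13, 5.15 and 5.82 in irradiated and 5.98, 5.67 and 5.69 in control cultures. Probe 1 (chr11:69638528-69638587) had -2.99, -3.02 and -2.37 in irradiated and -2.25, -2.22 and -2.43 in control cultures. At both probes irradiated 1 and 2 lay below all control values and irradiated 3 did not. The differences were -0.41 ± 0.26 at probe 2 (SE, 95% interval -1.02 to 0.19, adjusted p = 0.559) and -0.49 ± 0.25 at probe 1 (adjusted p = 0.520). With quantile normalisation the difference at probe 2 was -0.10 and that at probe 1 was -0.58.

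Nlgn3, the X-linked neuroligin found at both kinds of synapse, had 2 probes 2.43 kb apart on the plus strand, with r = 0.92 between them. Probe 1 (chrX:98516457-98516516) had 0.70, 1.004 and 1.45 in irradiated and 1.52, 1.16 and 1.44 in control cultures. Probe 2 (chrX:98518888-98518947), the brighter, had 2.80, 3.16 and 3.51 in irradiated and 3.71, 3.58 and 3.51 in control cultures. As for Nlgn2, irradiated 1 and 2 were the low arrays, as they were for the summed neuron markers, whose part in both genes was not tested, and at probe 2 irradiated 3 (3.509) and control 3 (3.512) were almost equal. The differences were -0.32 ± 0.26 at probe 1 (SE, adjusted p = 0.645) and -0.44 ± 0.24 at probe 2 (95% interval -1.01 to 0.12, unadjusted p = 0.106, adjusted p = 0.527). Of 56603 probes of other names, 16 shared a run of 16 bases with probe 2, each somewhere within its bases 40 to 60. Nrxn3 probe 6 shared such a run with 2 probes, Nlgn2 probe 2 with 1 and the other 16 member probes with none. The 16 probes that share a run with Nlgn3 probe 2 had differences from -0.78 to 0.51 with a median of -0.22, 13 of them below 0. Whether RNA of other genes adds to the signal of Nlgn3 probe 2 was not tested.

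Lrrtm1 and Lrrtm2 encode postsynaptic leucine-rich repeat proteins that bind neurexins at excitatory synapses, and each had 1 probe. Lrrtm1 (chr6:77195379-77195438, plus strand) had 3.09, 3.61 and 3.66 in irradiated and 3.22, 3.78 and 3.78 in control cultures. Lrrtm2 (chr18:35368673-35368732, minus strand) had 1.62, 1.83 and 2.16 in irradiated and 1.64, 1.94 and 2.30 in control cultures. For both genes sample 1 was the lowest of its group and sample 3 the highest, and the groups overlapped. The differences were -0.14 ± 0.26 for Lrrtm1 (SE, 95% interval -0.76 to 0.48, adjusted p = 0.870) and -0.09 ± 0.26 for Lrrtm2 (95% interval -0.70 to 0.52, adjusted p = 0.926). These intervals leave room for a difference of either sign, and with quantile normalisation the difference at Lrrtm1 was 0.026.

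**Figure D4:**
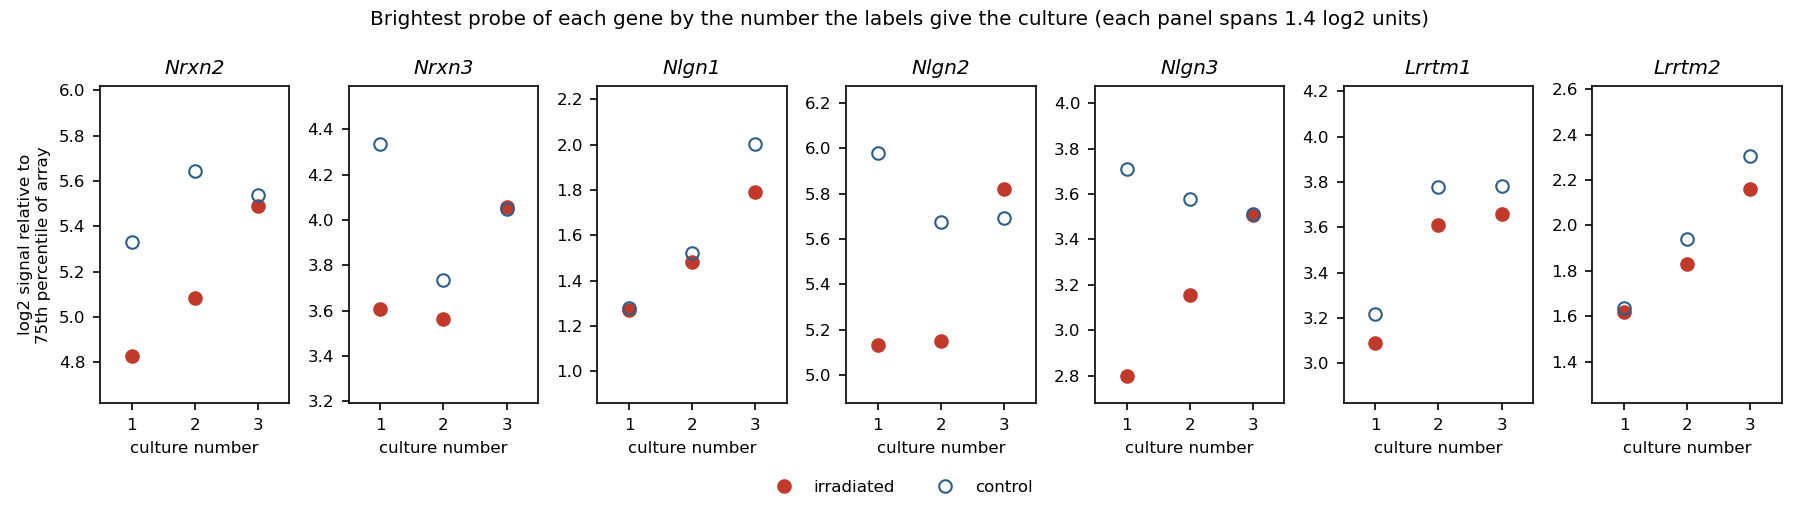
Level of the brightest probe of each gene (log2 signal relative to the 75th percentile of the array) against the number the labels give the sample, irradiated as filled red and control as open blue circles, each panel spanning the same range. Nlgn1, Lrrtm1 and Lrrtm2 follow the number in both groups, while at Nrxn2, Nrxn3, Nlgn2 and Nlgn3 the irradiated cultures 1 and 2 lie below the controls.

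The sample number was fitted as a second factor, since the 2 groups share the numbers 1 to 3. In limma's F test of the number no member probe passed (smallest adjusted p = 0.204, 0.00247% of all kept probes called). Nrxn2 probe 2 was the single member at an unadjusted p under 0.05 (unadjusted p = 0.0095, beside 12.7% of all kept probes). Next came Lrrtm1 (unadjusted p = 0.081), Nlgn1 probe 3 (unadjusted p = 0.090) and Lrrtm2 (unadjusted p = 0.096). In all, 4 of the member probes were under 0.1, beside 19.9% of all kept probes. At Nlgn1 probe 3 and Lrrtm2 the 3 same-numbered pairs of arrays did not overlap one another, as was so for 13.8% of all kept probes. The mean of both arrays of a number was 1.28, 1.502 and 1.90 for Nlgn1 probe 3 and 1.63, 1.89 and 2.23 for Lrrtm2.

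Other genes of the neurexin and neuroligin system were taken in 4 lists with 68 genes, all of them measured and each read at its brightest probe. No gene passed the adjusted test (0% of 26120 genes did), and at an unadjusted p under 0.05 there was 1 gene, lower in irradiated cultures, beside 9.15% of all genes (6.76% lower and 2.39% higher). The difference was below 0 for 44 of the 68 genes and above 0 for 24, with a median of -0.09, against 65.8% below 0 and a median of -0.13 over all genes. The groups did not overlap for 7 of them, all lower in irradiated cultures, beside 12.1% of all genes lower and 3.86% higher.

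Among 15 other ligands and extracellular modulators, 10 had a difference below 0 and 5 above, with a median of -0.20. The neurexophilin Nxph4, of a family of secreted alpha-neurexin ligands, had -2.07, -2.68 and -1.94 in irradiated and -0.98, -1.59 and -1.96 in control cultures, a difference of -0.72 ± 0.32 (SE, unadjusted p = 0.0589). Adgrl1, a latrophilin that binds neurexins and teneurins, differed by -0.44 ± 0.22, and Dag1, whose product dystroglycan binds alpha-neurexins, by -0.41 ± 0.25. The groups overlapped for these 3 genes.

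Among 10 cytoplasmic partners, 6 had a difference below 0, with a median of -0.18. Dlg4, the gene of PSD-95, a scaffold that binds neuroligin tails, had 2.31, 2.24 and 2.40 in irradiated and 3.25, 2.67 and 2.64 in control cultures. Every irradiated value was below every control value, with a difference of -0.54 ± 0.23 (SE, unadjusted p = 0.0506, adjusted p = 0.504). The 3 kept probes of Dlg4 had differences from -0.54 to 0.010. Apba2, an adaptor that binds neurexins, differed by -0.43 ± 0.25, and its groups overlapped.

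Among 40 other trans-synaptic adhesion genes, 26 had a difference below 0, with a median of -0.06. Igsf9, an immunoglobulin superfamily adhesion gene, had 4.82, 4.68 and 4.83 in irradiated and 5.64, 5.95 and 5.13 in control cultures, a difference of -0.80 ± 0.25 (SE, unadjusted p = 0.0147, adjusted p = 0.504) with no overlap. At the other kept probe of Igsf9 the difference was -0.17. Lrfn4, of a family of postsynaptic leucine-rich repeat proteins, differed by -0.57 ± 0.28, and Lrrc4b, which encodes the netrin-G ligand family member NGL-3, by -0.60 ± 0.31. Of the 3 splicing regulators, Khdrbs3 differed by -0.25 ± 0.25, Khdrbs2 by -0.13 ± 0.26 and Khdrbs1 by 0.07 ± 0.24, and all 3 overlapped between groups. These RNA-binding proteins are known from the mouse brain to regulate the splicing of neurexin transcripts.

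**Figure D5:**
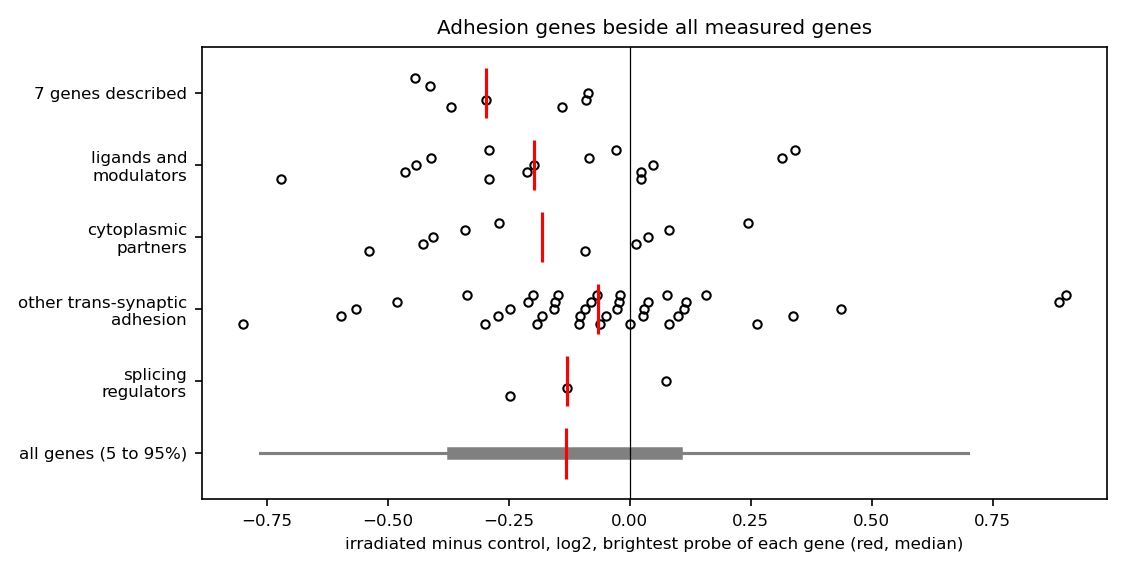
Irradiated minus control difference (log2) at the brightest probe of each gene, for the 7 genes described and the 4 partner lists, with a red bar at each median. The lowest row gives all 26120 genes, with a thick bar from the 25th to the 75th percentile and a thin line from the 5th to the 95th. The medians of the upper 5 rows lie between -0.30 and -0.06, beside -0.13 for all genes.

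The genes whose pattern over the 6 arrays was most like that of each member, among 16327 named genes by Pearson's r at the brightest probe, were Map4 and Ccni for Nrxn2, Septin6 and Cldn22 for Nrxn3, Dlat and Cetn2 for Nlgn1, U2af1 and Ip6k2 for Nlgn2, Poldip3 and Gabrr1 for Nlgn3, Exoc8 and Eif4a2 for Lrrtm1, and Shisal1 and Cept1 for Lrrtm2. The r values of these 14 genes were between 0.997 and 0.9998. With 6 arrays such values are common: the median over all named genes of the r with the most similar gene was 0.997.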

How the data were processed

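RNA from 6 cultures (3 irradiated, 3 control) was read on 1 array each. The authors deposited scanner files of linear spot intensity. These come from Agilent Feature Extraction, version 10.7.1.1 in the submitters' processing notes. Per the file headers, this is a signal corrected for background and for spatial trends but not between arrays. A log2 table deposited by the authors, quantile normalised as its values show, served as an alternative, with its tool not given in the sources used here. All 6 arrays shared a slide and a scan. The controls and irradiated 1 were in the same row of the slide and irradiated 2 and 3 in the other, so place and group overlap in part, which was not tested.

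Spots marked as outliers were left out (none among the 19 probes), signals were converted to log2, the spots of a probe were averaged, and the 75th percentile of non-control probes was subtracted array by array. Of 56605 probes, 10 had only marked spots on 1 or more arrays, and 40552 were well above background on at least 3 of 6 arrays. The difference was fitted without covariates by lmFit and eBayes of limma 3.58.1 (R 4.3.3), with Benjamini-Hochberg adjustment over all kept probes or, for the lists, over 26120 genes at their brightest probe. Intervals are 95%. The script was tested on simulated data. Genes outside the 7 were named through RefSeq's table of mouse genes: 32994 probes by accession, 10224 by symbol, 520 by synonym, and 12867 kept the file's name. The number of arrays limits the precision, and with 3 against 3 arrays an exact permutation test cannot go below 0.1.

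The 7 genes, the lists and the rule for named genes were chosen with earlier results of these data known. All probes of the 7 genes are given, as are the 2 genes most like each of them and the 3 genes with the smallest p in each list, except 1 gene that is not reported here. The tilt along a gene and the shared runs of bases were looked at after the values were seen. Alternatives changed background correction, normalisation, scaling, the filters, the sample number as a block, and the arrays used.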

Additional observations from a re-analysis of the deposited data

How the results depend on the processing

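The counts of member probes and of partner genes called were 0 in limma under every alternative run, and the count of member probes called by sample number was 0 under the 4 alternatives run for it (normexp, quantile normalisation, the authors' table and no filter). At an unadjusted p under 0.05 the count of member probes was 1 and became 3 with normexp, 2 with the sample number as a replicate block, 2 with the other 75th percentile, 0 under the filter on all 6 arrays (17 probes tested, without Nlgn1 probes 1 and 2), 5 without irradiated 3, 4 without control 2, and 2 without control 1, without control 3 or without both arrays numbered 1. Over all kept probes 4 passed the adjusted test with quantile normalisation and 4 with the authors' table, against 0 otherwise, and 3657 were under an unadjusted 0.05, which became 6870 with normexp, 5701 with no filter, 6367 without control 3, 2273 without control 1, 1518 without both arrays numbered 1, 1255 without irradiated 2 and 1238 without irradiated 1. The 3 member probes under an unadjusted 0.05 with normexp were Nrxn2 probe 1, Nrxn3 probe 4 and Nlgn2 probe 1, all lower in irradiated cultures. Nlgn1 probe 1, the only one in the main fit, was not among them (unadjusted p = 0.663 in limma with normexp). The share of probes below 0 moved from 55.9% to 73.7% with normexp (median -0.20) and 50% with quantile normalisation (median 0.00). Of 188 values of single probes under other settings 179 kept their direction. The 9 that turned, with the cause not tested, were Nrxn3 probe 1 at -0.13 with normexp, Lrrtm1 at 0.026 with quantile normalisation, 0.026 with the block and quantile normalisation and 0.027 in the authors' table, Lrrtm2 at 6.31e-05 in the authors' table, Nrxn2 probe 2 at 0.027 and Nlgn1 probe 3 at 0.00071 with the 75th percentile over probes well above background on all arrays, and Nrxn2 probe 2 at 0.075 and Nrxn3 probe 5 at 0.11 without both arrays numbered 1. Leaving out 1 array turned 9 of 114 values, in the ranges -0.36 to 0.37 (Nrxn2 probe 2), -0.51 to 0.060 (Nrxn3 probe 5), -0.25 to 0.11 (Nlgn1 probe 3), -0.33 to 0.039 (Lrrtm1) and -0.25 to 0.081 (Lrrtm2). Same-numbered arrays deviated together from their group means with r of 0.46, 0.33 and 0.09 for numbers 1, 2 and 3 over probes (0.53, 0.42 and 0.22 over genes), and over genes each irradiated sample correlated best with the control of its own number (control 3 with irradiated 2), while over probes irradiated 2 did so with control 3 and irradiated 3 with control 2. Whether the number pairs the samples is therefore not settled, and both fits are given. With it as a replicate block the smallest adjusted p was 0.495 and the unadjusted p of Nlgn1 probes 1 and 2 was 0.0087 and 0.029.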

Other observations

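The tilt along the gene seen at Nrxn3 and Nlgn1 was also read in the partner lists, as a description with no test. Of the 68 partner genes, 25 had kept probes at least 10 kb apart, and for 18 of them the difference at the first probe minus that at the last was above 0, with a median of 0.31. Over all 3903 named genes with such probes it was above 0 for 64.8%, with a median of 0.20. The values ran from -0.94 at Magi2, a synaptic scaffold gene, to 1.302 at Adgrl3, a latrophilin. Cdh2, which encodes N-cadherin, had 1.14, Ncam1, a neural cell adhesion gene, had 1.11, and the neurexophilin gene Nxph1 had 1.05. Tenm4, a teneurin gene, ran the other way at -0.68. These 6 genes were named after their values were seen. The brightest probes of Magi2, Adgrl3, Cdh2, Ncam1, Nxph1 and Tenm4 had differences of -0.27, 0.34, -0.20, -0.15, -0.29 and -0.02.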
